A study of Homo sapiens with 9 samples.

Results

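TMEM176A and TMEM176B are 2 of the 25680 gene symbols counted in SKNO-1, a human line of acute myeloid leukaemia with an endogenous AML1-ETO (RUNX1-RUNX1T1) fusion. They were taken by symbol, and they hold 5 of the 48104 RefSeq transcript rows: 1 row for TMEM176A (NM_018487) and 4 for TMEM176B (NM_001101311, NM_001101312, NM_001101314 and NM_014020). Each gene was represented by the row with the highest total. The pair was selected on their measured levels in these same samples, where TMEM176B was known to be higher with each shRNA. Every level and fold change against the control group is therefore a description of the values that chose the genes, and nothing is inferred from its size. Both genes passed the filter on low counts.

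RNA-seq covered 9 samples in 3 groups of 3. The control group, labelled EV and called shControl here after the study's wording, was compared with cells carrying either of 2 shRNAs against ASXL2, shASXL2-2 and shASXL2-3. Because the labels say EV and the study speaks of a control shRNA, the kind of control vector is not settled. All groups share the same line, the same fusion and the same GM-CSF-containing medium, and each group has samples numbered 1, 13 and 25 with no stated meaning. The model is a single cell line with partial loss of ASXL2. The study calls the samples biological triplicates without saying whether they came from separate transductions, so p values measure only the spread between these samples. Its library protocol, poly(A)-selected and without strand, is given for sorted mouse cells, and the extraction text in the labels also describes sorted bone marrow cells, whereas the source is given as SKNO1, which was taken as the material. In bulk RNA, fewer cells that express a gene and less RNA per cell cannot be told apart.

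TMEM176A and TMEM176B encode small, closely related proteins that cross intracellular and endosomal membranes several times and belong to the wider MS4A (CD20-like) family. They have been described as cation channels of dendritic cells and other myeloid cells, where they are linked to antigen presentation on MHC class II, and TMEM176B has been described as a brake on the NLRP3 inflammasome. ASXL2, the target of the shRNAs, is a chromatin regulator that binds the histone H2A deubiquitinase BAP1.

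The genes lie head to head on chromosome 7 (GRCh37). TMEM176B spans 150488373 to 150498448 on the minus strand and TMEM176A spans 150497491 to 150502206 on the plus strand. Their canonical protein-coding transcripts, TMEM176B-201 with 1115 nt and TMEM176A-201 with 1033 nt, have 7 exons each, and their start sites are 405 bases apart. Because TMEM176B-203 starts inside the first intron of TMEM176A, the gene spans overlap by 958 bases, yet 0 exonic bases are shared by any of their annotated transcripts. Exonic reads of the pair therefore do not depend on strand to be told apart.

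The 250 bases before each start site are shown because the same stretch of DNA lies upstream of both genes. The sequences are from RefSeq (GRCh38.p14), at chr7:150800519-150800768 on the plus strand for TMEM176A and at chr7:150800365-150800614 on the minus strand for TMEM176B, each written 5′ to 3′ on the strand of its gene. Capitals mark the 96 bases that the windows have in common, which are the reverse complement of each other.
TMEM176A: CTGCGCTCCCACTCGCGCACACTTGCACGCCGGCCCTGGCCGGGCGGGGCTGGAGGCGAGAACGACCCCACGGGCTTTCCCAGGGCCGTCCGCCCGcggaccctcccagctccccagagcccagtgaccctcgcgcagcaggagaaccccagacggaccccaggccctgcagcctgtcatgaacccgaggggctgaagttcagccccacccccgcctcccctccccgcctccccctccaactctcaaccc
TMEM176B: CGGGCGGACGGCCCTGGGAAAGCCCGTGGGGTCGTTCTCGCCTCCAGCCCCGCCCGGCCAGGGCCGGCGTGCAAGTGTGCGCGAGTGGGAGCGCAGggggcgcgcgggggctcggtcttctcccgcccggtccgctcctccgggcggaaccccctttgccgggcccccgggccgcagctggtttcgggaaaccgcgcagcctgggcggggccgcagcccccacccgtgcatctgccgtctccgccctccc
The TMEM176A window holds 73.2% G and C with 20 CpG dinucleotides, and the TMEM176B window holds 78.4% with 33. Over 35116 such windows in the RefSeq table the median was 58.0% with 11 CpG, and the 95th percentile was 78.4% with 35 CpG. Motif letters were searched on both strands. The RUNX letters TGTGGT stand in 10.98% of all windows and their variant TGCGGT in 5.84%. The ETS letters CGGAAG stand in 16.5% and the form GAGGAAG in 11.2%, while the AP-1 letters TGANTCA stand in 6.57%, the GATA letters AGATAA in 9.17% and a CCAAT box in 32.0%. None of these stood in either printed window, which says only that these letters are not there. Another RefSeq start of TMEM176B lies inside the TMEM176A gene. Its window shares 0 bases with that of TMEM176A and holds 1 match to GAGGAAG and 2 to the CCAAT box.

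The target of the shRNAs was measured first. Levels are given as CPM, the read count scaled to the summed counts of the tested genes, with 1 transcript row per gene, and adjusted by TMM. In samples 1, 13 and 25 of shControl, ASXL2 (NM_018263) stood at 67.9, 67.9 and 74.7 CPM. The shASXL2-2 samples stood at 30.4, 36.2 and 36.2 CPM, and those of shASXL2-3 at 26.9, 29.1 and 41.1 CPM. All 6 knockdown samples were below all 3 controls, as were 2.61% of the 14199 genes tested. Without a term for the sample number, edgeR's adjusted p for ASXL2 was 0.808 with shASXL2-2 and 0.612 with shASXL2-3. With the number as a block they were 0.00469 and 0.00407, at log2 fold changes of -1.04 (SE 0.10) and -1.13 (SE 0.10). The numbers pair the samples by the check given with the methods, so both fits are reported.

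TMEM176B, the abundant member, was higher in every knockdown sample than in any control. Its normalised read count was 20.1, 19.2 and 18.3 CPM in the shControl samples numbered 1, 13 and 25. With shASXL2-2 it was 31.2, 28.3 and 30.0 CPM. With shASXL2-3 it was 38.7, 26.2 and 26.9 CPM. The groups did not overlap, which holds in the same direction for 2.16% of the genes tested. The shASXL2-3 sample numbered 1 was the highest of the 9, while the other 5 knockdown samples lay within 26.2 to 31.2 CPM.

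By group TMEM176B averaged 19.2 ± 0.914 CPM for shControl, 29.8 ± 1.47 CPM for shASXL2-2 and 30.6 ± 7.06 CPM for shASXL2-3 (mean ± SD of n = 3). The knockdown groups are neighbours in that order and did not differ beyond their spread. Set against the control of the same number, the level was 155%, 148% and 164% with shASXL2-2. With shASXL2-3 it was 192%, 137% and 147% of the control of the same number. Each knockdown sample exceeded its own control, which is the case for 11.6% of the genes tested.

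TMEM176A, the scarce member, was also higher on average with each shRNA, but its groups overlapped. It had 42, 25 and 48 counts in shControl, which is 1.16, 0.850 and 1.60 CPM. With shASXL2-2 it had 65, 67 and 57 counts, or 2.18, 2.10 and 1.98 CPM. The shASXL2-3 samples held 79, 44 and 79 counts, or 2.69, 1.36 and 2.88 CPM. The shASXL2-3 sample numbered 13 lay below the shControl sample numbered 25, so 5 of 6 knockdown samples exceeded every control. No share over all genes was computed for that count. All 6 exceeded the control of their own number, standing at 123% to 247% of it, and such an excess in all 6 held for 11.6% of the genes tested.

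TMEM176A averaged 1.20 ± 0.377 CPM for shControl, 2.08 ± 0.101 CPM for shASXL2-2 and 2.31 ± 0.828 CPM for shASXL2-3 (mean ± SD of n = 3). At this depth the 95% Poisson interval of the lowest sample, with 25 counts, ran from 16.2 to 36.9 counts, and that of the highest, with 79 counts, from 62.5 to 98.5 counts. For TMEM176B the lowest sample, with 549 counts, had an interval of 504 to 597 counts. Such intervals cover counting error only.

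**Figure D1:**
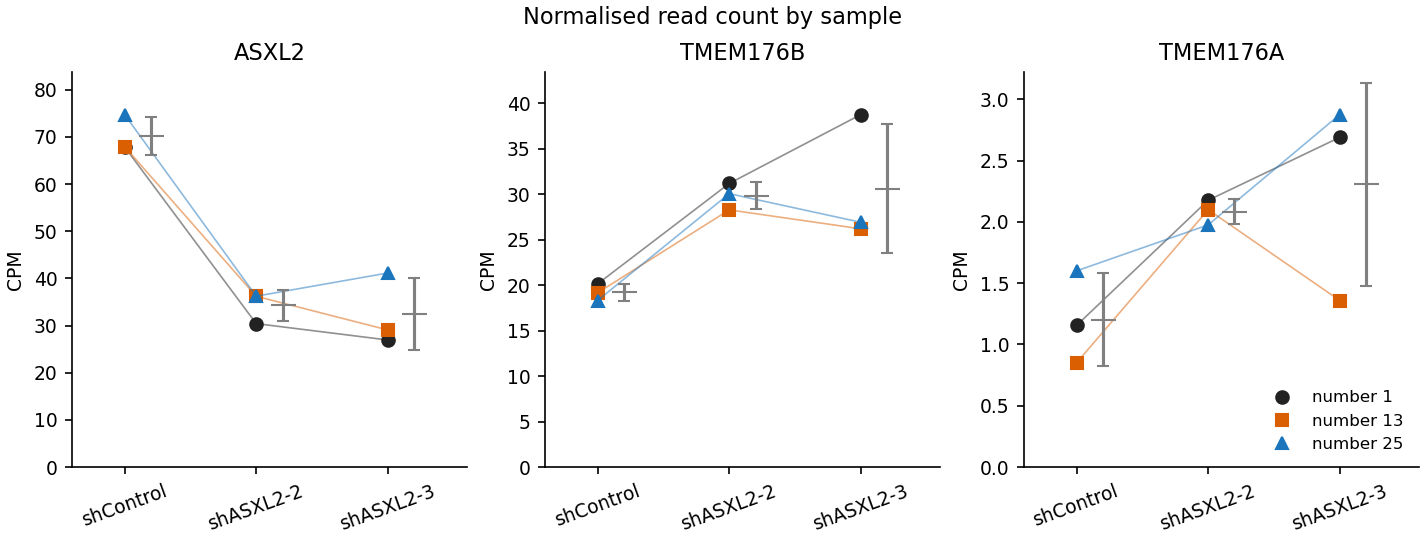
Normalised read count (CPM, linear axes from 0) of ASXL2, TMEM176B and TMEM176A in each of the 9 samples, with samples of the same number joined by a line and the grey bar showing mean ± SD of the 3 samples of a group. TMEM176B lay between 18.3 and 20.1 CPM in shControl and between 26.2 and 38.7 CPM in the knockdown samples, whereas the TMEM176A groups overlapped.

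Per kilobase of canonical transcript, the shControl level was 17.2 ± 0.819 CPM per kb for TMEM176B and 1.16 ± 0.365 CPM per kb for TMEM176A (SD, n = 3 each). TMEM176B ranked above 67.6% of the 13782 tested genes with a known length and TMEM176A above 18.4%, against a median of 8.42 CPM per kb. SKNO-1 cells thus held a moderate level of TMEM176B messenger RNA and a low level of TMEM176A.

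In the fit without a block, TMEM176B had a log2 fold change of 0.64 (SE 0.15) for shASXL2-2 and of 0.67 (SE 0.15) for shASXL2-3, at edgeR adjusted p of 0.808 and 0.930. No gene passed in that fit, so 0% of 14199 genes were called in each of these contrasts; at an unadjusted p under 0.05 edgeR listed 762 and 723 genes, and DESeq2 called 25 and 26, or 0.176% and 0.183%. With the replicate block the TMEM176B values were 0.64 (SE 0.10) and 0.66 (SE 0.11), with edgeR adjusted p of 0.0428 and 0.0308. In the block fit, 0.0986% of genes were called higher with shASXL2-2 and 0.183% with shASXL2-3, and 0.282% and 0.416% were called in either direction.

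For both shRNAs averaged, the TMEM176B log2 fold change was 0.65 (SE 0.13) without the block and 0.65 (SE 0.09) with it. The edgeR adjusted p was 0.623 without the block and 0.0291 with it, in a fit that called 0.254% of genes higher and 1.10% in either direction. As a linear ratio, the block fit gave 1.57 with a 95% confidence interval of 1.36 to 1.81. The estimate itself moved little between the fits, and the interval narrowed with the block.

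TMEM176A did not pass in either fit. With the shRNAs averaged, the unblocked value was 0.86 (SE 0.29, edgeR adjusted p 0.676) and the blocked one 0.88 (SE 0.22, edgeR adjusted p 0.0810). The blocked value was 0.84 for shASXL2-2 (SE 0.25, edgeR adjusted p 0.139), and that of shASXL2-3 was 0.93 (SE 0.25, edgeR adjusted p 0.116). The 95% confidence interval of the averaged ratio, 1.31 to 2.59, covered the whole interval of TMEM176B.

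The contrast between the shRNAs did not itself choose the genes, but the levels in both of its groups were known in the choice. Choosing a gene that is higher with each shRNA favours genes on which the shRNAs agree. The differences between them are therefore also a description. TMEM176B differed between shASXL2-3 and shASXL2-2 by a log2 difference of 0.04 without the block, with a 95% confidence interval of -0.30 to 0.37 (edgeR adjusted p 0.998). With the block the difference was 0.02, with an interval of -0.21 to 0.25 (edgeR adjusted p 0.946). The TMEM176A difference was 0.14 without the block, within -0.58 to 0.87 (edgeR adjusted p 0.998), and 0.09 with it, within -0.44 to 0.61 (edgeR adjusted p 0.895). No difference between the shRNAs was detectable for either gene, and for TMEM176A the interval still allows a sizeable one in either direction. In that contrast edgeR called 0% of genes without the block, with 293 at an unadjusted p under 0.05 and 11 (0.0775%) called by DESeq2, and with the block 0.106%, of which 0.0634% of genes were higher with shASXL2-3.

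**Figure D2:**
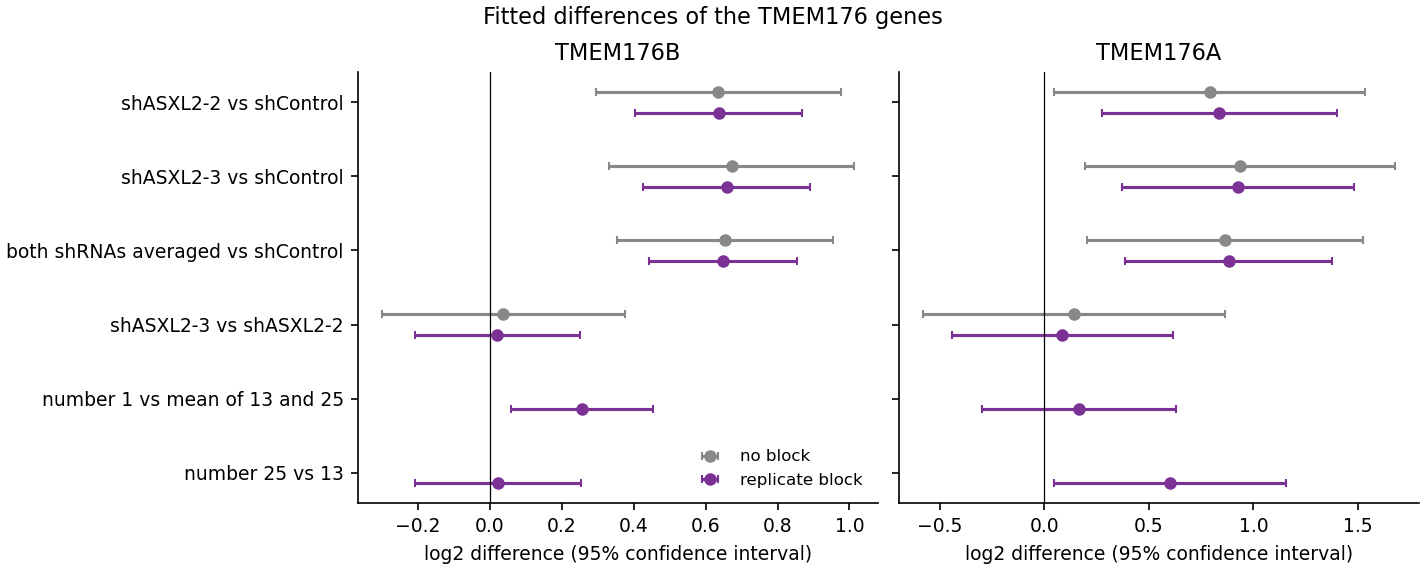
Fitted log2 differences with 95% confidence intervals for TMEM176B and TMEM176A, without a block (grey) and with the replicate number as a block (purple); differences between numbers exist only in the block fit, and the axes of the panels differ in range. The intervals against shControl lay above 0 in both fits, for TMEM176A with shASXL2-2 from 0.05 upwards without the block, and those of shASXL2-3 against shASXL2-2 included 0.

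The sample numbers were a contrast that the choice of genes had not used. Over the 3 groups TMEM176B was 30.0 ± 9.36 CPM in samples numbered 1, 24.5 ± 4.78 CPM in those numbered 13 and 25.1 ± 6.08 CPM in those numbered 25 (SD over the groups, n = 3 each). The log2 difference of number 1 from the mean of 13 and 25 was 0.26 (SE 0.09, edgeR adjusted p 0.0372). This contrast called 46.3% of all genes, 24.1% in the same direction, so the difference is shared with a large part of the transcriptome. It rested on the shASXL2-3 sample numbered 1: without that sample the TMEM176B difference was 0.10 (edgeR adjusted p 0.308). The call was also lost without the shControl sample numbered 25 (0.24, edgeR adjusted p 0.0939), the shASXL2-2 sample numbered 13 (0.25, edgeR adjusted p 0.0778), the shASXL2-3 sample numbered 13 (0.21, edgeR adjusted p 0.0857) and the shASXL2-3 sample numbered 25 (0.20, edgeR adjusted p 0.128).

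Between numbers 25 and 13, where 5.87% of genes were called and 2.77% were higher at 25, TMEM176B differed by 0.02 on the log2 scale (SE 0.10, edgeR adjusted p 0.922). TMEM176A had a larger one of 0.60 (SE 0.25), which did not pass (edgeR adjusted p 0.176). For number 1 against the others TMEM176A differed by 0.17 (SE 0.21, edgeR adjusted p 0.538). With single samples left out, the former ran from 0.33 without the shASXL2-3 sample numbered 13 to 0.95 without the shASXL2-2 sample numbered 13, and the latter from 0.026 without the shASXL2-3 sample numbered 1 to 0.33 without the shASXL2-2 sample numbered 13. By number, TMEM176A was at 2.01 ± 0.781, 1.44 ± 0.628 and 2.15 ± 0.655 CPM for 1, 13 and 25 (SD over the groups, n = 3 each).

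The ratio of the members varied between samples, on the small TMEM176A counts given above. There were 17.4, 22.5 and 11.4 TMEM176B counts for each TMEM176A count in the shControl samples numbered 1, 13 and 25. With shASXL2-2 the ratio was 14.3, 13.5 and 15.2. With shASXL2-3 it was 14.4, 19.3 and 9.35. The ratio was highest in the number 13 sample and lowest in the number 25 sample in shControl and with shASXL2-3, whereas in shASXL2-2 it was nearly even.

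The mean ratio was 17.1 ± 5.55 for shControl, 14.3 ± 0.874 for shASXL2-2 and 14.3 ± 4.96 for shASXL2-3 (mean ± SD of n = 3). The ranges of the groups overlapped. TMEM176A counts thus amounted to 4.44% to 10.7% of TMEM176B counts.

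**Figure D3:**
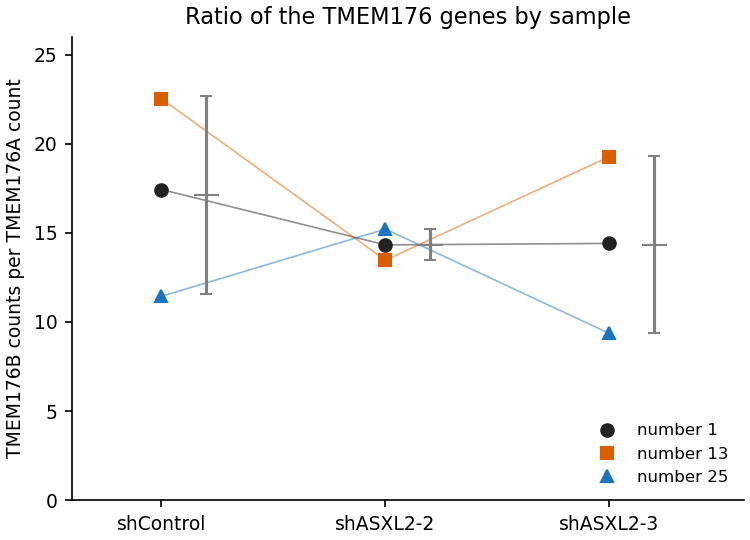
TMEM176B counts per TMEM176A count in each sample (linear axis from 0), with samples of the same number joined and grey bars for mean ± SD of the 3 samples of a group. The values ran from 9.35 to 22.5 and the groups overlapped.

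The 4 RefSeq rows of TMEM176B held almost the same reads. NM_001101311 and NM_001101312 had identical counts in every sample, NM_001101314 held 99.8% to 100% of them and NM_014020 held 98.2% to 99.6%. These rows measure the exons they share, so the counts do not separate the isoforms. The log2 ratio to the highest row differed between the knockdown samples and the controls by 0.0028 for NM_014020 and by 0.00091 for NM_001101314, which rests on a few reads per sample and says nothing of isoform use.

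The call of TMEM176B in the block fit depended on which samples were included. Its log2 fold change for both shRNAs averaged stayed between 0.56 and 0.72 when each sample was left out in turn. The adjusted p remained under 0.05 without the shASXL2-3 samples numbered 1 (0.56, edgeR adjusted p 0.000516), 13 (0.69, at 0.0212) and 25 (0.69, at 0.0463). It rose above 0.05 without the shControl samples numbered 1 (0.57, edgeR adjusted p 0.152), 13 (0.72, at 0.112) and 25 (0.65, at 0.152). The same happened without the shASXL2-2 samples numbered 1 (0.69, edgeR adjusted p 0.0670), 13 (0.64, at 0.0583) and 25 (0.61, at 0.130).

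TMEM176A moved over a wider range, 0.74 to 1.05, in the same block fits. It passed only without the shASXL2-3 sample numbered 1 (0.80, edgeR adjusted p 0.0307). That sample had the highest TMEM176B level and the second highest TMEM176A level, and without it edgeR called 1755 genes in this contrast, against 156 with all 9 samples. The calls over all genes moved with those of TMEM176B: edgeR called 2, 4 and 2 genes without the shControl samples 1, 13 and 25, 2, 25 and 2 without those of shASXL2-2, and 90 and 88 without the shASXL2-3 samples 13 and 25.

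**Figure D4:**
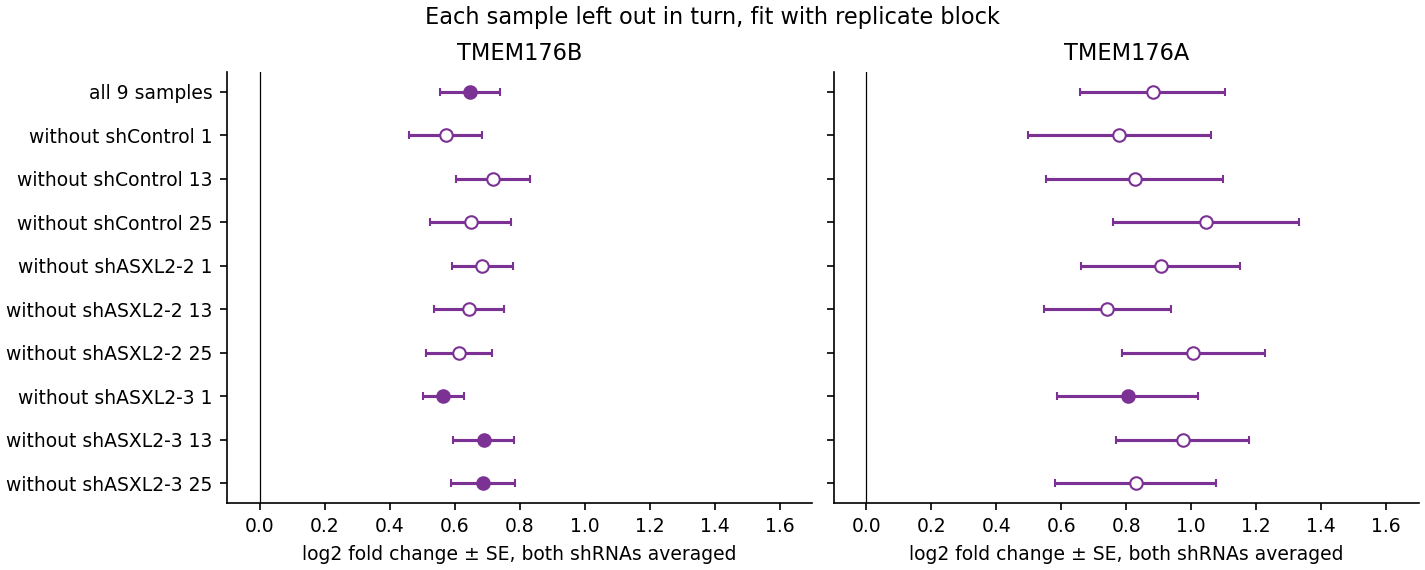
Log2 fold change ± SE for both shRNAs averaged in the block fit, with all 9 samples and with each sample left out in turn; filled points had an edgeR adjusted p under 0.05. The TMEM176B estimate stayed between 0.56 and 0.72 and that of TMEM176A between 0.74 and 1.05.

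Transcript length moved with the fold changes across the series. Across 13782 genes, which are not independent, longer transcripts had lower fold changes of the averaged shRNAs in the block fit (Spearman rho -0.356). The median log2 fold change was 0.10 among the shortest transcripts, up to 1564 nt, and -0.11 among the longest, above 5427 nt. Both TMEM176 transcripts, at 1115 and 1033 nt, belong to the shortest of these 5 classes. With an offset for transcript length in the block fit, TMEM176B was at 0.56 (SE 0.09), and its call was lost (edgeR adjusted p 0.0620). Without the offset but on the same genes with a length it was at 0.65 and passed (edgeR adjusted p 0.0347). TMEM176A was at 0.79 (SE 0.23, edgeR adjusted p 0.158) with the offset.

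The neighbours on 7q36.1 were examined to see whether the surrounding genes shared the direction. Of 24 listed neighbours, 18 were tested. In the block fit for both shRNAs averaged 1 rose, where 0.254% of all genes were called higher and 1.10% in either direction. None was called lower. Of the 18, 13 had a log2 fold change above 0, and the median was 0.06 against 0.01 for all genes. Without the block edgeR called 0 of these neighbours, with 1 at an unadjusted p under 0.05. Over all 14199 genes tested, 942 were at that unadjusted level. DESeq2 called 0 without the block, where it called 0.394% of all genes, and 1 with it, where it called 4.38%.

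The neighbour that rose was AOC1, a secreted amine oxidase that degrades histamine and the next gene on the TMEM176A side, with its start 19.5 kb from the end of TMEM176A (150521715 to 150558592, plus strand, GRCh37). Its shControl samples stood at 31.7, 27.2 and 31.8 CPM, those of shASXL2-2 at 40.7, 33.4 and 33.7 CPM, and those of shASXL2-3 at 70.4, 43.2 and 52.3 CPM. All 6 knockdown samples lay above the 3 controls, as in 2.16% of the genes tested. The shASXL2-3 samples lay above the shASXL2-2 samples, for which no share over all genes was computed. In the block fit the AOC1 log2 fold change was 0.55 (SE 0.09, edgeR adjusted p 0.0329) for both shRNAs averaged, 0.25 (SE 0.10, edgeR adjusted p 0.227) with shASXL2-2 and 0.85 (SE 0.10, edgeR adjusted p 0.0125) with shASXL2-3. The difference between the shRNAs was 0.60 (SE 0.10) and did not pass in edgeR (adjusted p 0.0656), whereas DESeq2 with the block called it (adjusted p 6.72e-05). That DESeq2 contrast called 1.07% of all genes. With the length offset the averaged value was 0.52 (edgeR adjusted p 0.0601), and without the block it was 0.56 (edgeR adjusted p 0.623). For shASXL2-3 alone the AOC1 call was kept with the offset (0.82, edgeR adjusted p 0.0178), and DESeq2 called it without the block (0.87, DESeq2 adjusted p 0.00629), where it called 0.183% of all genes.

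On the TMEM176B side lies the GIMAP cluster of small GTPases of lymphocytes. GIMAP5, with its end 41.3 kb from TMEM176B, was at 1.54 to 2.71 CPM over the 9 samples, GIMAP1 at 1.01 to 2.04, GIMAP2 at 3.07 to 10.1, GIMAP6 at 7.37 to 10.7 and GIMAP8 at 0.801 to 2.13 CPM. GIMAP4 had at most 1 count in a sample and GIMAP7 none. Further out on that side REPIN1, a zinc-finger protein, was at 85.5 to 96.8 CPM and ZNF775 at 1.80 to 4.15 CPM, LRRC61 had at most 1 count, and RARRES2, ZBED6CL and ACTR3C had none. None of these genes passed in the block fit.

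Beyond AOC1, KCNH2, a potassium channel, was at 49.9 to 111 CPM and NOS3, the endothelial nitric oxide synthase, at 2.18 to 3.27 CPM. ATG9B was at 3.46 to 5.69, ABCB8 at 6.54 to 13.9, ASIC3 at 0.300 to 0.510, CDK5 at 6.83 to 9.18, SLC4A2 at 60.5 to 80.2, FASTK at 22.0 to 32.3, TMUB1 at 21.5 to 28.9 and AGAP3 at 23.0 to 34.9 CPM. None passed in edgeR's block fit for the averaged contrast. DESeq2 with the block called KCNH2 between the shRNAs (-0.44 for shASXL2-3 against shASXL2-2, DESeq2 adjusted p 0.0196), where it called 1.07% of all genes. In that contrast it called AOC1 in the opposite direction, as given above.

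**Figure D5:**
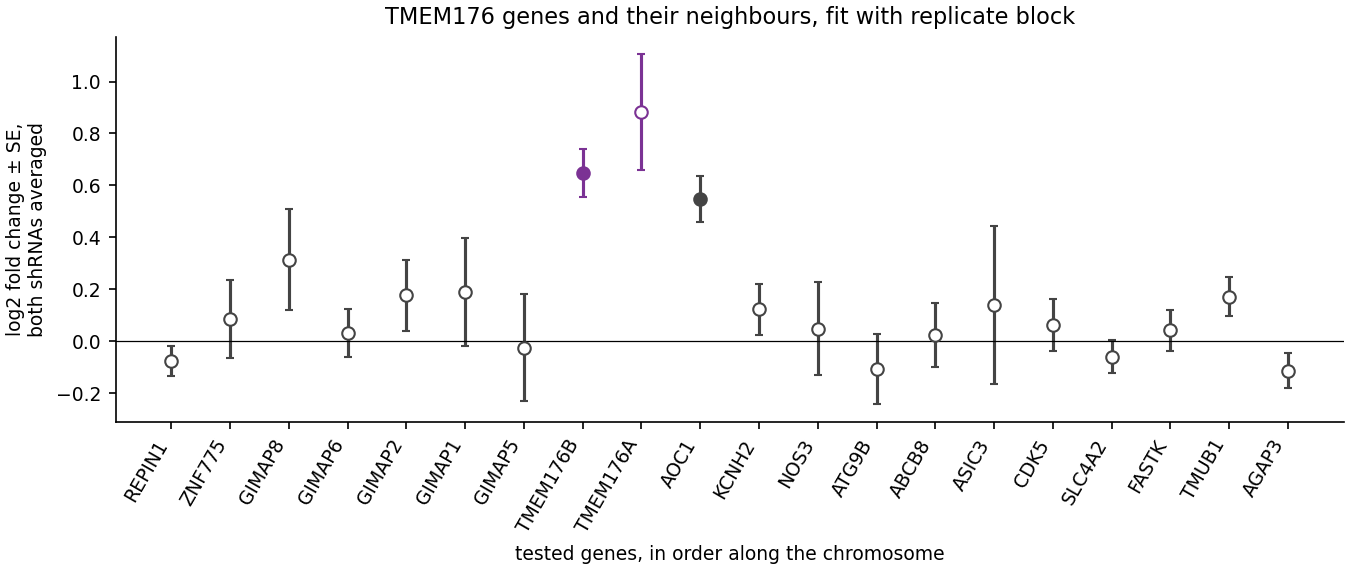
Log2 fold change ± SE for both shRNAs averaged in the block fit, for the TMEM176 genes (purple) and the 18 tested neighbours in their order along the chromosome; filled points had an edgeR adjusted p under 0.05. TMEM176B at 0.65 and AOC1 at 0.55 passed, TMEM176A at 0.88 did not, and the other 17 neighbours lay between -0.11 and 0.31.

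Among the wider MS4A family, 14 members were in the files, 8 had no count in any sample and 3 were tested. None passed in either edgeR fit for both shRNAs averaged, with 2 at an unadjusted p under 0.05 in each fit and 0 called by DESeq2 with or without the block. Of all 14199 genes tested, edgeR had 942 at that unadjusted level without the block and 2902 with it. Their median log2 fold change in the block fit was 1.19, against 0.01 for all genes. With 3 genes tested, that median is the value of MS4A4A alone, a gene of few counts, and does not describe the family. MS4A3, a myeloid progenitor marker that restrains the cell cycle, was at 7.84, 7.11 and 4.94 CPM in the controls. It was at 33.5, 12.1 and 27.3 CPM in the shASXL2-2 samples and at 24.2, 8.43 and 5.97 CPM in those of shASXL2-3. Its shASXL2-3 sample numbered 25 lay within the control range. DESeq2 with the block called MS4A3 for shASXL2-2 alone (1.80, DESeq2 adjusted p 0.0189), where it called 2.63% of all genes. The MS4A3 log2 fold change in the block fit was 1.31 (SE 0.31, edgeR adjusted p 0.0704) for both shRNAs averaged. MS4A4A, at 3 to 14 counts in a sample, was at 1.19 (SE 0.39, edgeR adjusted p 0.132), and MS4A7 at 0.39 (SE 0.22, edgeR adjusted p 0.342).

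Of 14 inflammasome genes, 11 were tested and none was called by edgeR in either fit, with 0 at an unadjusted p under 0.05 without the block and 2 with it. The counts over all 14199 genes were 942 and 2902. DESeq2 called 0 for both shRNAs averaged in each form, and with the block it called IL1B, the cytokine released by the inflammasome, for shASXL2-3 (0.38, DESeq2 adjusted p 0.0343), where it called 3.34% of all genes. IL1B was named after its values were seen, and edgeR's block fit had it at 0.29 for both averaged (adjusted p 0.0828). The median was 0.14 in the block fit, against 0.01 for all genes. GSDMD, which forms the pores of pyroptosis, was at 0.02 (SE 0.08, edgeR adjusted p 0.936), the inflammatory caspase CASP4 at 0.18 (SE 0.08, edgeR adjusted p 0.234) and NEK7, a partner of NLRP3, at -0.03 (SE 0.08, edgeR adjusted p 0.859). NLRP3 itself was expressed, at 10.4 to 34.0 CPM over the 9 samples. DESeq2 with the block called it between the shRNAs (0.65 higher with shASXL2-3, DESeq2 adjusted p 0.00928), where it called 1.07% of all genes and edgeR called none of the list.

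Of 18 genes of MHC class II presentation, 12 were tested. edgeR called none in either fit, with 2 at an unadjusted p under 0.05 without the block and 4 with it. Among all 14199 genes 942 and 2902 were at that unadjusted level. The median was -0.01, against 0.01 for all genes. The invariant chain CD74 was at -0.23 (SE 0.13, edgeR adjusted p 0.342), RFX5 at -0.03 (SE 0.07, edgeR adjusted p 0.808) and RFXANK, its partner in the promoter complex, at 0.09 (SE 0.06, edgeR adjusted p 0.432). DESeq2 called 0 without the block and 3 of 12 with it, in a fit that called 4.38% of all genes: CIITA, the class II transactivator, fell by 0.90 on the log2 scale (DESeq2 adjusted p 0.000189), HLA-DRA fell by 0.81 (DESeq2 adjusted p 0.0265) and CTSL, a lysosomal protease, rose by 0.67 (DESeq2 adjusted p 0.0211). These 3 genes were named after their values were seen. In edgeR's block fit CIITA was at -0.90 (SE 0.19, adjusted p 0.0531), HLA-DRA at -0.79 (at 0.106) and CTSL at 0.67 (at 0.0531). Also named after their values were seen, HLA-DPB1 was at -0.95 (edgeR adjusted p 0.0815) and HLA-DRB1 at -0.42 (at 0.379). Of the 12 tested genes 6 were above 0 in that fit, so the median mixes genes of both directions.

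Markers of other cells were measured beside the TMEM176 genes, which such cells also express. Of 29 dendritic cell and monocyte markers, 16 were tested and edgeR called none in either fit, with 0 at an unadjusted p under 0.05 without the block and 3 with it. For all 14199 genes these counts were 942 and 2902. DESeq2 called 0 without the block and 1 of 16 with it, in a fit that called 4.38% of all genes. It was CD86, a co-stimulatory receptor, named after its value was seen (0.85, DESeq2 adjusted p 0.0342). The median log2 fold change of the list in edgeR's block fit was 0.15, with 12 of 16 above 0, against 0.01 for all genes. Their summed level ranged over 163 to 186 CPM for shControl, 171 to 192 CPM for shASXL2-2 and 163 to 190 CPM for shASXL2-3. The list was mixed. IRF8 had no count, FCGR3A, CD163 and CD209 at most 1 count and CD14 at most 3 counts in a sample, whereas FLT3 stood at 19.8 to 36.4 CPM, ITGAM at 1.29 to 3.10 CPM and CSF1R at 1.10 to 3.98 CPM. The part of such cells in the TMEM176 levels was not tested. LYZ, CD83 and ZBTB46 had the highest levels, and none of the 3 passed: LYZ had a block log2 fold change of 0.12 (edgeR adjusted p 0.538), CD83 of 0.13 (at 0.376) and ZBTB46 of -0.13 (at 0.281).

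Of 13 markers of other lineages, 2 were tested and none was called by edgeR or DESeq2 for both shRNAs averaged, with 0 at an unadjusted p under 0.05 in each. Their sum was 3.83 to 7.52 CPM over the 9 samples; PECAM1 and CD79A gave most of it, and ALB had at most 6 counts.

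The identity of the line was visible in its own markers. RUNX1T1, a partner in the fusion, was at 111 to 138 CPM, KIT at 237 to 419 CPM, MPO at 6368 to 10243 CPM and POU4F1 at 3.30 to 4.25 CPM. CD34 had 2 to 10 counts in a sample. Of 15 such markers 11 were tested and 1 fell in the block fit for both shRNAs averaged, where 1.10% of all genes were called in either direction. It was PAX5, a B-lineage factor expressed in AML1-ETO leukaemia, at -0.79 (SE 0.14, edgeR adjusted p 0.0412; -0.77 and edgeR adjusted p 0.623 without the block). With the length offset its call was lost (-0.65, edgeR adjusted p 0.0912). DESeq2 called 0 of these markers for the average without the block. With the block it called PAX5 (-0.79, DESeq2 adjusted p 0.00504), in a fit that called 4.38% of all genes. DESeq2 with the block also called TRH, a neuropeptide precursor named after its values were seen, in opposite directions. TRH was at 0.42 with shASXL2-2 (DESeq2 adjusted p 0.0212, 2.63% of genes called) and at -0.46 with shASXL2-3 (DESeq2 adjusted p 0.0107, 3.34% called). Between the shRNAs TRH was at -0.88 (DESeq2 adjusted p 2.38e-09), where 1.07% of genes were called.

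Genes with a similar pattern were found by the root mean square difference of log2 CPM, centred on each gene's mean, over the 9 samples. Only genes that varied at least 0.5 times as much as the member were compared, 8632 for TMEM176B and 4948 for TMEM176A. Nearest to TMEM176B were CHRDL1, a BMP antagonist, at 0.11, HCG4B and FAM47E at 0.13, ZNF385C, a zinc-finger protein, at 0.14 and JOSD2, a deubiquitinase, at 0.15 log2 units. Being chosen for likeness to a gene whose groups do not overlap, they share that separation by construction. CHRDL1 averaged 3.92 ± 0.264, 6.21 ± 0.454 and 6.78 ± 1.80 CPM for shControl, shASXL2-2 and shASXL2-3 (mean ± SD of n = 3). HCG4B is an HLA-related pseudogene with 0.395 ± 0.0490 CPM in shControl, so its counts are uncertain.

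Nearest to TMEM176A were HHAT, an acyltransferase of hedgehog proteins, at 0.25, PGAM4 and KMO, an enzyme of tryptophan breakdown, at 0.28, and the transcription factor CEBPD and LOC440028 at 0.30 log2 units. These distances were larger than those of TMEM176B, from counts that are far lower. PGAM4 is a retrocopy that can share reads with PGAM1, and its level of 0.301 ± 0.0541 CPM in shControl (SD, n = 3) is uncertain. KMO averaged 16.3 ± 3.75, 23.8 ± 3.81 and 26.6 ± 3.90 CPM for shControl, shASXL2-2 and shASXL2-3 (mean ± SD of n = 3), and had a log2 fold change of 0.64 in the block fit (edgeR adjusted p 0.0109). CEBPD, at 0.51 (edgeR adjusted p 0.0291), and JOSD2, at 0.45 (edgeR adjusted p 0.0472), were also under 0.05 there and the other 7 like genes were not, a direction that the choice by likeness favours. That fit called 1.10% of all genes. With the length offset KMO (0.69, edgeR adjusted p 0.00946) and CEBPD (0.43, at 0.0476) kept their calls. The JOSD2 call was lost (0.35, edgeR adjusted p 0.115). TMEM176B ranked 29 in likeness to TMEM176A, and TMEM176A ranked 1391 in likeness to TMEM176B, both at a distance of 0.34 log2 units.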

How the data were processed

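The authors deposited raw counts per RefSeq transcript for each of 9 samples (hg19, GRCh37; the submitters' processing notes name STAR, featureCounts and DESeq2, with settings not given in the sources used here). These counts were not normalised. Reads shared by isoforms were counted in each row, so each of 25680 symbols was represented by its highest row, giving 27714431 to 35406063 counts per sample and a limit of 0.0825 to 0.109 CPM for 3 counts.

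edgeR 4.0.16 (R 4.3.3) quasi-likelihood F tests were run on all 9 samples with 1 coefficient per group, filterByExpr (minimum count 10, minimum total 15, 14199 genes kept), TMM scaling and Benjamini-Hochberg adjustment over all genes, with a threshold of 0.05. Standard errors came from the F statistic. The groups share the numbers 1, 13 and 25, so the number was also fitted as a block. The numbers pair the samples: after subtraction of each group's mean log2 CPM, the 9 pairs with a shared number and different groups correlated at 0.598 on average and at 0.398 in the lowest, against no more than 0.306 for pairs with different numbers. Residual degrees of freedom were 6 without and 4 with the block, and the biological coefficients of variation 0.192 and 0.0875. Differences between numbers came from the block fit. The fits were tested on a single simulated set of counts per setting. In it 200 genes were changed by 1 on the log2 scale, more than the averaged change of either member. Where numbers differed, the block fit recovered 93.9% of these genes, against 60.1% without the block. False calls made up 8.82% of its calls, a larger share than the threshold of 0.05 allows, which bears on adjusted p values just under it. A single set does not show how far these shares vary.

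Alternatives were DESeq2 1.42.0, its size factors, no filter, other uses of the transcript rows, a transcript length offset (lengths from GENCODE, matched for 13782 tested genes), samples left out and only the groups compared. The members, gene lists and rules were chosen with earlier results of these data known. Genes named by rule were the members, ASXL2, the 5 genes most like each member and every 7q36.1 neighbour by its range. From each of 8 lists the rule named those past the threshold in either edgeR fit or otherwise the 3 most abundant. Other list genes were named outside this rule with their values known, among them those called only by DESeq2. The results of 1 list and of 1 further marker are not reported here.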

Additional observations from a re-analysis of the deposited data

How the results depend on the processing

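Values here are log2 differences. Calls against shControl depended on the replicate block or the tool. TMEM176B passed with the replicate block (shASXL2-2 0.64, shASXL2-3 0.66, averaged 0.65), with DESeq2 and the block (0.64, 0.66, 0.65), with each RefSeq row and the block (0.63, 0.66, 0.65), with numbers 13 and 25 only and the block (0.64, 0.50, 0.57) and on genes with a length with the block (0.64, 0.66, 0.65). DESeq2 without the block called it for shASXL2-3 (0.67) and the average (0.65). It passed in block fits without a shASXL2-3 sample: for shASXL2-2 without number 1 (0.63) or 13 (0.64), for shASXL2-3 without 1 (0.50) or 13 (0.74), and for the average without 1 (0.56), 13 (0.69) or 25 (0.69). Single samples left out gave 0.56 to 0.72, 0.50 to 0.74 and 0.56 to 0.72 for these contrasts. TMEM176A passed without the shASXL2-3 sample numbered 1 alone (shASXL2-2 0.82, averaged 0.80). The length offset ended every TMEM176B call of the block fit.

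The sign of differences near 0 turned. For shASXL2-3 against shASXL2-2, TMEM176A with the block was at -0.018 on numbers 13 and 25 only, at -0.14 without the shASXL2-2 sample numbered 25, and at -0.038 and -0.0053 without the shASXL2-3 samples numbered 1 and 25; single samples left out without the block gave -0.044 to 0.42. TMEM176B was at -0.14 on numbers 13 and 25 only, with and without the block, at -0.060 and -0.14 in block fits without shASXL2-2 or shASXL2-3 sample 1, and at -0.17 to 0.14 with single samples left out. Between numbers 25 and 13 TMEM176B was at -0.014 without the shASXL2-2 group and at -0.055 to 0.11 with single samples left out. The transcript row difference ran from -0.0016 to 0.0087. The number 1 difference of TMEM176B, 0.10 to 0.34 with single samples left out, lost its call without the shControl (0.33), shASXL2-2 (0.34) or shASXL2-3 group (0.10). Of 313 results under alternatives, 265 kept direction and call and 14 turned. The causes were not tested.

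Genes called for shASXL2-2, shASXL2-3, the average and between the shRNAs numbered 0 in each without the block, 40, 59, 156 and 15 with it, 25, 26, 56 and 11 in DESeq2, 374, 474, 622 and 152 in DESeq2 with the block, 267, 341, 370 and 129 on numbers 13 and 25 only with the block, and 6, 37, 23 and 16 with the length offset. Between numbers 25 and 13, 833 genes became 50 to 2750 with single samples left out. DESeq2 with the block gave no adjusted p to TMEM176A for either shRNA alone.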
